A study of Mus musculus with 60 samples.

Results

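The genes described here are 10 genes of the ATF4 and serine-one-carbon axis, Atf4, Ddit3, Trib3, Chac1, Sesn2, Asns, Phgdh, Psat1, Shmt2 and Mthfd2, in RNA sequencing counts of mouse fibroblasts. They were chosen by name, as the rows of both count tables whose identifier carries 1 of those symbols, and were followed through all 20 groups of the study. Of the 56980 gene identifiers in each table, 11 rows matched, because 2 identifiers carry the symbol Ddit3. The second Ddit3 row (ENSMUSG00000116429), a model of 105 bases within the exons of the main Ddit3 gene, was at 0 in all 60 libraries, and all values below are those of ENSMUSG00000025408. All 10 genes passed the filter on low counts in the 3 fits behind the main values, and a stricter filter tried as an alternative removed Trib3.

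In the coordinates of the deposited tables (GRCm39), Atf4 lies at chr15:80139385-80141742 and Ddit3 at chr10:127126643-127132157, both on the plus strand. Chac1 is also on the plus strand, at chr2:119181710-119184862. The other 7 genes are on the minus strand, with Trib3 at chr2:152179342-152185952, Sesn2 at chr4:132219343-132237812 and Asns at chr6:7675169-7693254. The serine and one-carbon enzymes on that strand are Phgdh at chr3:98220486-98247306, Psat1 at chr19:15882042-15924701, Shmt2 at chr10:127352992-127358313 and Mthfd2 at chr6:83282673-83302890. Exons of Ddit3 share 68 bases with Mars1 and 13 bases with Gm4189 on the other strand, and those of Shmt2 share 32 bases with Ndufa4l2, so a few reads of these 2 genes could belong to the neighbour, as the strand setting was not given in the sources used here. No exon of the other 8 genes overlaps another gene's exons.

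The study used fibroblasts of Ercc1 d/- mice, which carry 1 hypomorphic and 1 knockout allele of the DNA repair gene Ercc1 and are called D/KO, and of WT mice. In the reprogramming table, tail tip fibroblasts with doxycycline-inducible Oct4, Sox2, Klf4 and c-Myc (OSKM, called 4F) came from a D/KO male of 8 weeks and from a WT female of 22 weeks that also carries Oct4-GFP, so that genotype, sex and age cannot be told apart between the lines. Doxycycline at 2 µg/ml was given for 0, 2 or 4 days, alone or plus VC, which is 50 µg/ml ascorbic acid with 3 µM of the GSK3 inhibitor CHIR99021, spelled CHIR-99201 in the labels. The labels give a day 0 plus VC group, and how long those cells were kept in VC was not given in the sources used here. In the inhibitor table, D/KO tail tip fibroblasts of a 4-week female, without the 4F transgene in the label, were left as control or treated for 3 days with Repsox (0.1 µM), Vactosertib (0.1 µM), A83-01 (1 µM), which inhibit the TGFb receptor ALK5, Vactosertib also being described as an inhibitor of the BMP receptor ALK2, or DMH-1 (1 µM), an inhibitor of ALK2. Control fibroblasts from tail tip and from skin of a 14-week WT female, and 4F WT cells of 22 weeks labelled TGFB, complete that table. Each group had 3 libraries, no label places them in separate mice, and p-values therefore measure only the spread between these samples, which may be technical.

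ATF4 is the transcription factor of the integrated stress response. Kinases that sense amino acid shortage, misfolded protein in the endoplasmic reticulum, viral RNA or lack of haem phosphorylate the initiation factor eIF2, which lowers general protein synthesis but raises translation of Atf4 mRNA, so the mRNA level of Atf4 does not by itself give the level of the protein. ATF4 binds composite C/EBP-ATF elements (CARE) and drives genes for amino acid synthesis and transport, among them the enzymes that make serine from a glycolytic intermediate (Phgdh, Psat1) and pass its carbon to folate in mitochondria (Shmt2, Mthfd2). In fibroblasts the same enzymes also supply glycine for collagen and formate for nucleotides.

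The RefSeq promoter windows of the 10 genes (300 bases, from 250 before to 50 after the start) were searched on both strands for the CARE core TGATGNAA, to place the family's known binding element beside the expression data. It was found in the windows of 3 of 10 genes, Asns, Trib3 and Chac1. Of all 32851 windows of that length, 3.97% hold the core. The E-box CACGTG was in none of the 10 genes' windows and in 7.15% of all windows, and the endoplasmic reticulum stress element (ERSE) was in none and in 0.119% of all windows. A match gives letters only and not binding. The 3 sites are printed with 11 bases on either side, 5′ to 3′ on the strand of the core, which is in capitals.
Asns, chr6:7693214-7693243, minus strand (the strand of the gene), GRCm39: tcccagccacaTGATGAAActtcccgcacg
Trib3, chr2:152185948-152185977, plus strand (opposite to the gene), GRCm39: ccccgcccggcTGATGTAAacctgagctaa
Chac1, chr2:119181519-119181548, minus strand (opposite to the gene), GRCm39: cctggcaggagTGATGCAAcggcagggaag
In GENCODE M39 the Asns core lies in a UTR exon of 22 of 40 Asns transcripts, the Trib3 core in a UTR exon of 5 and an intron of 4 of 12 transcripts, and the Chac1 core in a UTR exon of 1 of 2 transcripts. Sequences are RefSeq's (GRCm38.p6 windows), placed in GRCm39 by exact match.

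The reprogramming libraries held 16538374 to 18484951 counts each and the inhibitor libraries 17102639 to 30599138. The variance between replicates, averaged over genes above a low mean count, was a median of 13.6 and 25.5 times counting noise. Averaged over such genes, the spread between libraries outweighed counting noise. This average does not cover genes with few counts, such as Trib3 in 4F WT cells plus VC. Levels are given as TMM-scaled CPM, a library's counts divided by its scaled total, and changes as log2 fold changes with their standard errors (SE) from edgeR's quasi-likelihood test, adjusted by Benjamini-Hochberg over all genes tested, with a gene called at an adjusted p under 0.05. Sox2 was 3.18 ± 0.411 CPM in 4F D/KO cells at day 0 and 94.1 ± 28.4 at day 4, and 2.29 ± 0.612 and 83.8 ± 7.51 in 4F WT cells (SD, n = 3). Ercc1 was 14.2 ± 3.87 CPM in 4F D/KO and 20.6 ± 2.23 in 4F WT cells at day 0, and 20.6 ± 0.276 in D/KO control and 18 ± 4.30 in WT tail tip cells (SD, n = 3), so gene-level counts did not check the genotype. Col1a1 was at 10200 CPM or more in all 36 reprogramming libraries, and Myod1, Myog, Tyr and Mlana were at 0 in all of them. Replicate 3 of 4F D/KO day 0 and replicate 3 of 4F D/KO day 2 stood apart from the other 2 of their groups in Atf4, Ddit3, Trib3, Chac1 and Sesn2. So did replicate 1 of WT skin in Atf4, Ddit3, Sesn2, Asns and Phgdh. Counts of calls that rest on these libraries are given also without them, other than those that take day 0 without VC as the baseline of groups plus VC.

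Per length of exon, Atf4 had the highest level of the 10 genes at day 0, with 114 ± 29.1 RPKM (CPM divided by exon length in kilobases) in 4F D/KO and 127 ± 4.79 RPKM in 4F WT cells (SD, n = 3). Phgdh and Asns came next in both lines, at 89.3 and 82.2 RPKM in 4F D/KO and 63.6 and 53.9 RPKM in 4F WT cells. In 4F D/KO cells at day 4 plus VC, Atf4 remained first at 60.1 ± 12.7 RPKM, and Trib3 was last at 1.78 ± 0.466 RPKM. Across the 12 reprogramming groups, the highest mean CPM was 175 times the lowest for Trib3, 14.5 times for Chac1, 10.3 times for Mthfd2, and between 2.25 times (Sesn2) and 6.92 times (Ddit3) for the others. Ordered by mean, the libraries of neighbouring groups overlapped in 10 of 11 steps for Atf4, Ddit3 and Psat1 and in 4 of 11 steps for Asns.

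**Figure D1:**
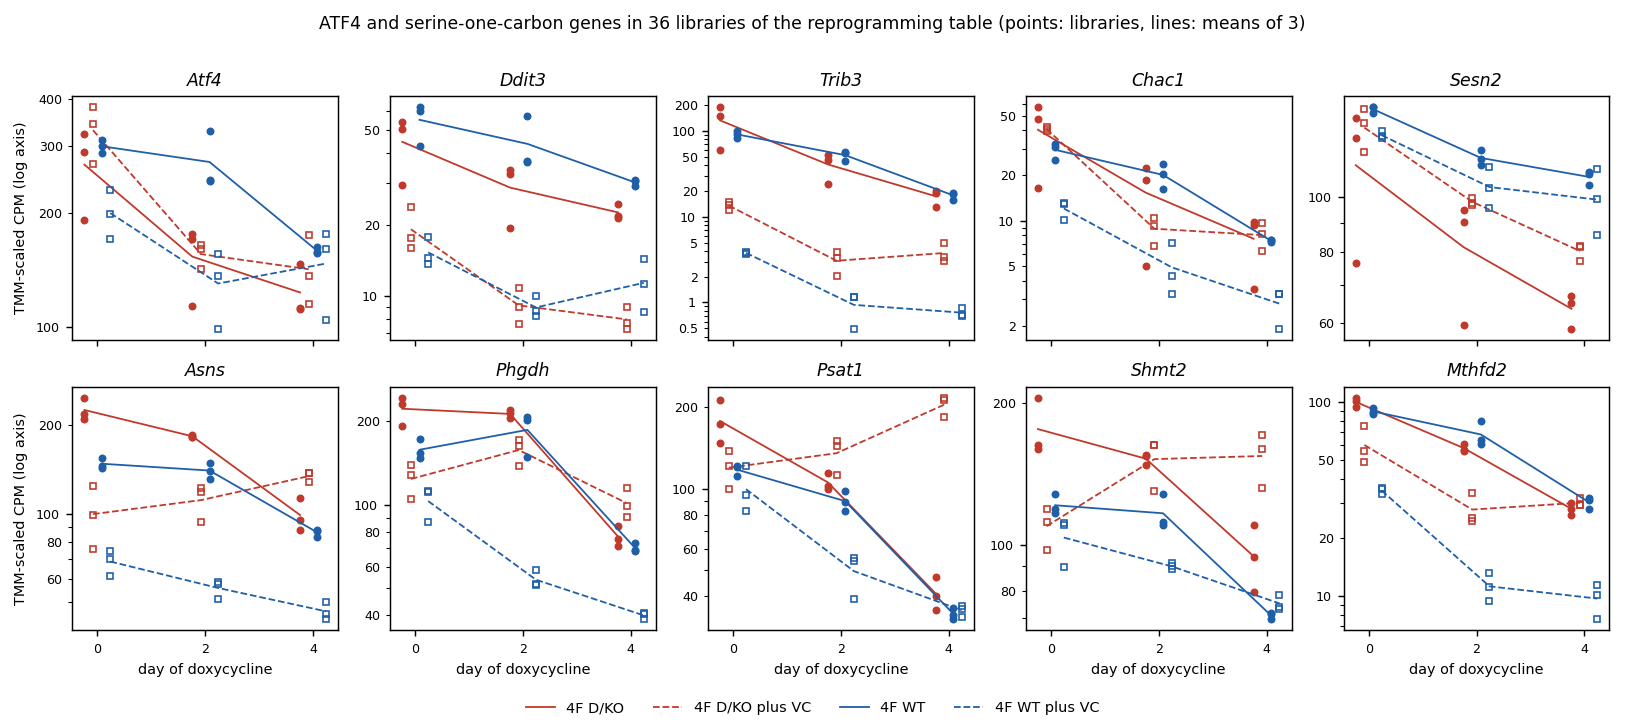
Level of each gene in TMM-scaled CPM (log axes) against day of doxycycline in the 36 reprogramming libraries, with points nudged sideways by arm; filled circles and solid lines are cells without VC, open squares and dashed lines cells plus VC, and lines join the means of 3 libraries. Psat1 in 4F D/KO cells plus VC (184 to 216 CPM at day 4) lies far above the other arms at day 4, and Trib3 plus VC lies below Trib3 without VC at every day in both lines.

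The first question was how the genes moved as OSKM was induced, each day being set against day 0 of the same arm. In 4F D/KO cells without VC, all 10 genes fell by day 4, by a median log2 fold change of -1.35, where 18.7% of all 15832 genes tested were called lower and the median over all genes was 0.000. At day 2, 7 of 10 had fallen (median -0.70, with 13.2% of all genes called lower). Trib3, a pseudokinase that feeds back on ATF4, had 189, 150 and 61.0 CPM in the 3 libraries at day 0, 45.5, 53.2 and 23.9 at day 2 and 19.8, 19.2 and 13.1 at day 4. Its libraries did not overlap between any of the 3 days, although replicate 3 was lowest on each. Trib3 fell by 1.71 (SE 0.25, adjusted p = 1.36e-06) at day 2 and by 2.94 (SE 0.27, adjusted p = 1.77e-11) at day 4 on the log2 scale, a 7.69-fold drop.

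Among the other stress genes, Atf4 itself stood at 323, 289 and 191 CPM at day 0 and at 111, 112 and 146 CPM at day 4 in 4F D/KO cells. All 3 day 4 libraries were below all 3 day 0 libraries, and the change was -1.12 (SE 0.19, adjusted p = 1.34e-05). Chac1, which degrades glutathione, went from 47.6, 56.6 and 16.4 CPM to 9.88, 9.41 and 3.51 CPM and fell by 2.40 (SE 0.37, adjusted p = 1.8e-06). Every day 4 library of Chac1 was below every day 0 library, the low replicate 3 included. Ddit3, which encodes the pro-apoptotic factor CHOP, changed by -0.99 (SE 0.21, adjusted p = 0.00023), and Sesn2, a leucine sensor that restrains mTORC1, by -0.84 (SE 0.14, adjusted p = 7.32e-06). Without replicate 3 of day 0 the counts were again 7 lower at day 2 (11.1% of all genes) and 10 lower at day 4 (16.8%). Without replicate 3 of day 2, 5 of 10 genes were called lower at day 2 (10.9% of all genes), with Ddit3 (-0.42, adjusted p = 0.168) and Sesn2 (-0.29, adjusted p = 0.126) no longer called. Both were also lost at day 2 without replicate 1 of day 0 (Ddit3 -0.47, adjusted p = 0.132; Sesn2 -0.39, adjusted p = 0.06) and without replicate 2 of day 0 (Ddit3 -0.54, adjusted p = 0.0861; Sesn2 -0.32, adjusted p = 0.114).

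The enzymes fell as well in 4F D/KO cells without VC. Psat1, the aminotransferase of serine synthesis, had 147, 173 and 212 CPM at day 0, 102, 100 and 114 at day 2 and 40.3, 47.1 and 35.5 at day 4, with no overlap between days. Its day 4 change was -2.12 (SE 0.15, adjusted p = 2.05e-14), a 4.33-fold drop. Mthfd2, the mitochondrial folate dehydrogenase, stood at 94.3, 105 and 101 CPM at day 0 and at 28, 26.3 and 30.1 CPM at day 4, with the groups far apart and the change at -1.84 (SE 0.14, adjusted p = 1.76e-13). Phgdh, the first enzyme of serine synthesis, was at 243, 192 and 231 CPM at day 0, 219, 214 and 205 at day 2 and 71.4, 84.3 and 75.3 at day 4. The day 2 libraries of Phgdh lay within the day 0 range (-0.06, SE 0.12, adjusted p = 0.765), and the drop of 1.53 (SE 0.12, adjusted p = 1.35e-12) was found at day 4. Asns, asparagine synthetase, fell by 1.18 (SE 0.12) and Shmt2, the mitochondrial serine hydroxymethyltransferase, by 0.90 (SE 0.11) at day 4, and neither was called at day 2 (adjusted p = 0.0577 and 0.178). Asns was called lower at day 2 by DESeq2 (-0.32, adjusted p = 0.0299), with DESeq2's size factors (-0.32, adjusted p = 0.0364), with at least 10 counts in every library (-0.30, adjusted p = 0.0462) and in a fit of only the groups compared (-0.29, adjusted p = 0.0303).

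In 4F WT cells without VC, all 10 genes also fell by day 4 (median -1.05, with 12.8% of all genes called lower and an all-gene median of -0.012). The largest drops were those of Trib3 (-2.36, SE 0.26, adjusted p = 7.39e-09), Chac1 (-2.0, SE 0.37), Psat1 (-1.76, SE 0.15, adjusted p = 9.1e-12) and Mthfd2 (-1.55, SE 0.14). Trib3 stood at 83.1, 99.9 and 91.4 CPM at day 0 and at 15.9, 19.1 and 18.5 CPM at day 4, and Psat1 at 111, 120 and 121 and at 33.0, 36.4 and 34.3 CPM. Neither gene's groups overlapped. The smallest drop was that of Sesn2 (-0.40, SE 0.14, adjusted p = 0.0334), from 141 to 144 CPM at day 0 to 105 to 111 CPM at day 4. The Sesn2 groups did not overlap, but the call was lost in the fits that left out any 1 of the 6 WT day 0 and day 4 libraries (-0.41 to -0.37, adjusted p = 0.0701 to 0.104). At day 2, only Trib3 (-0.80, adjusted p = 0.0284) and Mthfd2 (-0.40, adjusted p = 0.0486) were called of the 10, against 4.30% of all genes called lower. By DESeq2, Trib3 (-0.82, adjusted p = 0.0639) was not called and Psat1 (-0.40, adjusted p = 0.0448) was. Psat1 and Chac1 were also called lower with no filter on low counts (-0.39, adjusted p = 0.0213; -0.56, adjusted p = 0.0103) and in a fit of only the groups compared (-0.39, adjusted p = 0.0275; -0.56, adjusted p = 0.0359). Mthfd2 was lost in 25 of the 36 fits that left out a library and Trib3 in 5. Both were lost without replicate 2 or 3 of WT day 0 or without replicate 1 or 3 of WT day 2. Trib3 was then at -0.85 to -0.69 (adjusted p = 0.059 to 0.0971) and Mthfd2 at -0.40 to -0.31 (adjusted p = 0.114 to 0.23). Without replicate 1 of WT day 2, Phgdh was called higher (0.38, adjusted p = 0.0399).

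Plus VC, the 2 lines parted. In 4F D/KO cells, 3 of 10 genes rose and 7 fell at day 4 plus VC against day 0 plus VC, where 27.9% of all genes were called higher and 26.2% lower. At day 2 plus VC, 2 rose and 6 fell (23.8% of all genes called higher and 23.6% lower). In this arm Psat1 had 100, 137 and 121 CPM on day 0, then 112, 150 and 143 on day 2, then 184, 216 and 212 on day 4. The first 2 groups overlapped and the third lay above both, with a change of 0.77 (SE 0.14, adjusted p = 1.52e-05) at day 4. Shmt2 rose by 0.47 (SE 0.11, adjusted p = 0.000789) at day 2 and 0.49 (SE 0.11, adjusted p = 0.000381) at day 4, and Asns by 0.43 (SE 0.12, adjusted p = 0.00289) at day 4, a call lost without replicate 1 of 4F D/KO day 0 plus VC (0.26, adjusted p = 0.0628). Phgdh went from 105, 128 and 139 CPM at day 0 plus VC to 138, 163 and 172 at day 2 plus VC (0.35, SE 0.12, adjusted p = 0.018) and to 90.4, 99.2 and 115 at day 4 plus VC (-0.29, SE 0.12, adjusted p = 0.0467), and its groups overlapped in both comparisons. The day 2 call of Phgdh was lost without replicate 1 of day 0 plus VC (0.24, adjusted p = 0.145), replicate 2 of day 2 plus VC (0.33, adjusted p = 0.0548) or replicate 3 of day 2 plus VC (0.28, adjusted p = 0.0952), and its day 4 call in 24 of 36 fits without a library.

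The stress genes and Mthfd2 fell in 4F D/KO cells plus VC also. At day 4 plus VC the changes lay at -2.34 (SE 0.37) for Chac1, -1.84 (SE 0.31) for Trib3, -1.26 (SE 0.23) for Ddit3, -1.22 (SE 0.19) for Atf4, -0.99 (SE 0.14) for Mthfd2 and -0.72 (SE 0.14) for Sesn2. Atf4 went from 342, 269 and 379 CPM to 136, 115 and 174 CPM, without overlap. The higher values of Psat1, Shmt2 and Asns depend on the baseline, as these 3 genes were lower plus VC at day 0. Against day 0 without VC, 0 of 10 genes were called higher and 8 lower by edgeR's quasi-likelihood test in 4F D/KO cells at either day plus VC, where 23.4% of all genes were called lower at day 2 and 25.5% at day 4. At day 4 plus VC, Psat1 was then at 0.20 (adjusted p = 0.234), Shmt2 at -0.19 (adjusted p = 0.161) and Asns at -0.75 (adjusted p = 1.9e-06).

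In 4F WT cells plus VC no gene of the 10 was called higher, 7 fell at day 2 (13.7% of all genes called lower) and 8 at day 4 (22.0%), by a median of -0.85 and -0.96. Psat1 moved from 94.7, 82.7 and 121 CPM at day 0 plus VC to 54.2, 39 and 55.6 on day 2, then to 36, 37 and 33.7 on day 4 of that arm, with no overlap between days and a change of -1.48 (SE 0.15, adjusted p = 1.65e-10) at day 4. Mthfd2 fell by 1.85 (SE 0.15, adjusted p = 1.06e-12) and Phgdh by 1.37 (SE 0.13, adjusted p = 3.77e-11). Trib3 had the lowest mean of any gene and group, with 0.872, 0.713 and 0.699 CPM (at least 13 counts in a library), against 3.92, 3.81 and 3.65 CPM at day 0 plus VC. Atf4 (-0.44, SE 0.19, adjusted p = 0.0601) and Ddit3 (-0.42, SE 0.22, adjusted p = 0.127) were not called at day 4 plus VC. Atf4 was called lower there by DESeq2 (-0.45, adjusted p = 0.0461), in a fit of only the groups compared (-0.44, adjusted p = 0.023) and with no filter (-0.45, adjusted p = 0.000822), which also called Ddit3 (-0.42, adjusted p = 0.0315). At day 2 plus VC, Asns was not called in the fit of all libraries and was called lower by DESeq2 (-0.32, adjusted p = 0.0404), with DESeq2's size factors (-0.32, adjusted p = 0.0462) and with at least 10 counts in every library (-0.31, adjusted p = 0.0424). Among the day 2 plus VC calls, Atf4 lost its call without replicate 1 of WT day 0 plus VC (-0.50, adjusted p = 0.0859) or replicate 3 of WT day 2 plus VC (-0.45, adjusted p = 0.125), Ddit3 without replicate 1 of WT day 0 plus VC (-0.64, adjusted p = 0.0626) and Chac1 without replicate 2 of WT day 2 plus VC (-1.07, adjusted p = 0.0782). At day 4 plus VC, Sesn2 (-0.38, adjusted p = 0.0255) lost its call without replicate 3 of WT day 0 plus VC (-0.36, adjusted p = 0.0648) or without replicate 2 (-0.37, adjusted p = 0.0603) or 3 (-0.28, adjusted p = 0.15) of WT day 4 plus VC. Against day 0 without VC, all 10 genes were called lower in WT cells at both days, where 17.8% of all genes were called lower at day 2 and 18.9% at day 4.

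**Figure D2:**
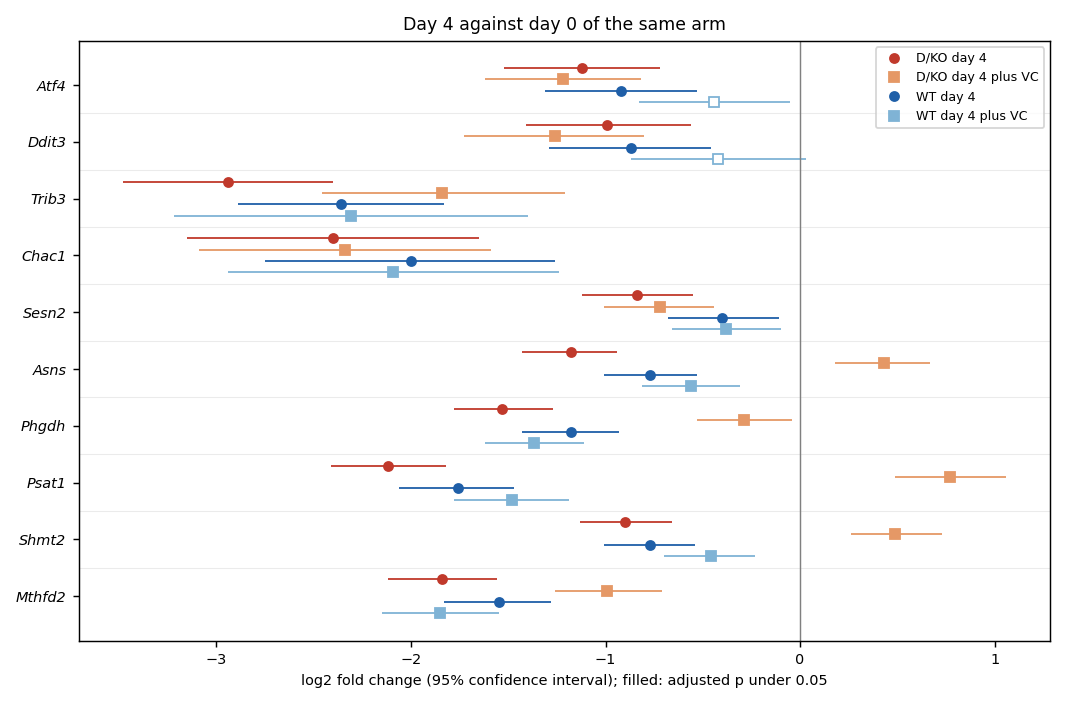
Log2 fold change at day 4 against day 0 of the same arm with 95% confidence intervals, for D/KO and WT cells without VC (circles) and plus VC (squares); filled symbols passed an adjusted p of 0.05 in edgeR's quasi-likelihood test. The 4 symbols of Sesn2 lie between -0.84 and -0.38, while those of Psat1 run from -2.12 (D/KO day 4) to 0.77 (D/KO day 4 plus VC).

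Whether the lines differed was tested on the difference itself, the D/KO change minus the WT change. Without VC, 0 of 10 genes were called by edgeR at day 2 (3 at an unadjusted p under 0.05, 0 by DESeq2), where 6.54% of all genes were called in either direction, and 0 of 10 at day 4 (2 at an unadjusted p under 0.05, 0 by DESeq2), where 14.3% were. The difference for Trib3 was -0.91 at day 2 (95% interval -1.61 to -0.21, adjusted p = 0.12) and -0.59 at day 4 (-1.31 to 0.14, adjusted p = 0.297), and that for Psat1 -0.35 at day 4 (-0.76 to 0.06, adjusted p = 0.262). Without replicate 3 of 4F D/KO day 0, 2 genes were called lower at day 2 (2.87% of all genes), Trib3 (-1.26, adjusted p = 0.00421) and Atf4 (-0.86, adjusted p = 0.045), and 2 at day 4 (6.17%), Trib3 (-0.93, adjusted p = 0.0277) and Sesn2 (-0.66, adjusted p = 0.00509). Without replicate 3 of 4F D/KO day 2, 0 genes were called by edgeR at day 2 (5.38% of all genes called in either direction) and 0 were at an unadjusted p under 0.05. Trib3 was then at -0.63 (adjusted p = 0.328) and Atf4 at -0.50 (adjusted p = 0.361). With no filter on low counts, 3 genes were called lower at day 2 (1.84% of all genes called lower), Trib3 (-0.90, adjusted p = 0.000162), Atf4 (-0.67, adjusted p = 0.00218) and Chac1 (-0.83, adjusted p = 0.00927), and Trib3 (-0.58, adjusted p = 0.0418) at day 4 (3.67%). Without replicate 2 of 4F D/KO day 4, 1 gene was called lower at day 4 (5.35% of all genes).

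Plus VC the change differed between lines for the 5 enzymes. At day 4 plus VC, 5 of 10 genes had a higher change in D/KO cells and 2 a lower one, against 13.9% and 15.5% of all genes. The difference was 2.26 for Psat1 (SE 0.20, adjusted p = 1.07e-10), 1.08 for Phgdh (SE 0.17, adjusted p = 1.17e-05), 0.99 for Asns (SE 0.17, adjusted p = 3.15e-05), 0.96 for Shmt2 (SE 0.16, adjusted p = 2.13e-05) and 0.86 for Mthfd2 (SE 0.20, adjusted p = 0.00116). At day 2 plus VC, 3 of 10 were higher (6.86% of all genes), Phgdh by 1.29 (SE 0.17), Psat1 by 1.18 (SE 0.20) and Shmt2 by 0.68 (SE 0.16); without replicate 3 of 4F D/KO day 0 plus VC, 5 were (6.06% of all genes). DESeq2 also called 5 (8.15% of all genes), with Mthfd2 (0.55, adjusted p = 0.0478) and Asns (0.47, adjusted p = 0.0498) added. Chac1 was called lower with no filter (-0.89, adjusted p = 0.00693) and in a fit of only the groups compared (-0.91, adjusted p = 0.0497). With day 0 without VC as the baseline, these 5 enzymes and Trib3 were called higher at day 4 plus VC (9.42% of all genes called higher), and Phgdh, Psat1 and Mthfd2 at day 2 plus VC (8.74%), where Shmt2 was at 0.22 (adjusted p = 0.374).

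The lower changes at day 4 plus VC were those of Atf4 (-0.78, SE 0.27, adjusted p = 0.0289) and Ddit3 (-0.84, SE 0.32, adjusted p = 0.0431). Each was lost in 7 of the 36 fits that left out a library, with Atf4 then at -0.75 to -0.62 (adjusted p = 0.0524 to 0.106) and Ddit3 at -0.85 to -0.64 (adjusted p = 0.064 to 0.158). The libraries were replicates 1 and 3 of 4F D/KO day 0 plus VC for Atf4 and 1 for Ddit3, replicates 1 and 2 of 4F D/KO day 4 plus VC, replicate 3 of 4F WT day 0 plus VC for Atf4 and 2 and 3 for Ddit3, and replicates 2 and 3 of 4F WT day 4 plus VC. Against day 0 without VC, Atf4 was at 0.11 (adjusted p = 0.833) and Ddit3 at -0.20 (adjusted p = 0.707).

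Markers of other cells and of growth moved along with the arms. Of all genes, 27.9% were called higher and 26.2% lower at day 4 plus VC against day 0 plus VC in 4F D/KO cells and 22.7% and 22.0% in 4F WT cells, beside which the counts of markers plus VC stand. The summed level of the 11 proliferation genes was 246 to 264 CPM in 4F D/KO cells at day 0 plus VC and 624 to 701 at day 4 plus VC, and all 11 rose, whereas in 4F WT cells it was 226 to 265 and 169 to 192 and 7 of 11 fell. The 6 keratinocyte markers summed to 1.19 to 2.14 CPM in 4F D/KO cells at day 0 plus VC and 337 to 467 CPM at day 4 plus VC, and to 0.695 to 1.53 and 10.2 to 12.1 CPM in 4F WT cells, with 3 of the 4 tested markers higher in each line. Krt14, with up to 421 CPM in a library, and Cdh1, with up to 48.4, made up nearly all of that sum. Trp63 reached 5, Epcam 0.846, Krt5 0.669 and Krt15 0.118 CPM in the 36 libraries, and Krt15 was at 0 in 30 of them. The 4 endothelial markers summed to 180 to 217 CPM at day 0 plus VC and 378 to 509 at day 4 plus VC in 4F D/KO cells, where 2 rose and 1 fell, and to 4.67 to 7.08 and 98.1 to 116 CPM in 4F WT cells, where 1 rose and 1 fell. Of 8 fibroblast markers, 6 fell and 1 rose in D/KO cells and 5 fell and 2 rose in WT cells. Without VC the proliferation genes went from 208 to 246 CPM at day 0 to 264 to 342 CPM at day 4 in D/KO cells and from 90.4 to 105 CPM to 95.4 to 111 CPM in WT cells. The part of these in the differences between the lines was not tested, and in bulk RNA fewer cells of a type and less RNA per cell cannot be told apart.

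From day 2 to day 4 without VC, 6 of 10 genes fell in 4F D/KO cells (5.07% of all genes called lower) and 8 of 10 in 4F WT cells (12.3%). All 5 enzymes fell in both lines, among them Phgdh at -1.47 (SE 0.12) and -1.41 (SE 0.12), Psat1 at -1.36 (SE 0.14) and -1.38 (SE 0.15) and Mthfd2 at -1.04 (SE 0.14) and -1.16 (SE 0.14) in D/KO and WT cells. Trib3 fell by 1.23 (SE 0.26) and 1.56 (SE 0.26) in the same order. Chac1 was at -1.01 (SE 0.37, adjusted p = 0.0831) in D/KO cells and fell by 1.45 (SE 0.37, adjusted p = 0.00545) in WT cells. In D/KO cells Chac1 was called lower with no filter (-1.01, adjusted p = 2.72e-07). It was also called lower there without replicate 3 of 4F D/KO day 0 (-1.01, adjusted p = 0.0388) or replicate 3 of 4F D/KO day 2 (-1.44, adjusted p = 0.00496). Atf4 was at -0.31 (SE 0.19, adjusted p = 0.394) in D/KO cells and -0.78 (SE 0.19, adjusted p = 0.00447) in WT cells, the latter lost without replicate 2 of WT day 2 (-0.61, adjusted p = 0.0637). Ddit3 in WT cells was at -0.54 (adjusted p = 0.0574) and was called lower with no filter (-0.54, adjusted p = 0.00297) and in a fit of only the groups compared (-0.52, adjusted p = 0.0272). Without replicate 3 of 4F D/KO day 2, 8 of 10 fell in D/KO cells (3.40% of all genes). Plus VC, Psat1 rose (0.60, SE 0.14, adjusted p = 0.00192) and Phgdh fell (-0.63, SE 0.12, adjusted p = 0.000201) in D/KO cells, 1 gene each way, where 7.76% of all genes were called higher and 7.84% lower. In WT cells plus VC, Psat1 (-0.48, adjusted p = 0.0172) and Phgdh (-0.43, adjusted p = 0.0146) fell, 2 of 10 against 10.1% of all genes called lower. Psat1 lost its call there without replicate 1 (-0.41, adjusted p = 0.0965) or 3 (-0.39, adjusted p = 0.0918) of WT day 2 plus VC. It was also lost without replicate 3 of WT day 4 plus VC (-0.44, adjusted p = 0.0715). Phgdh lost its call without replicate 1 of WT day 2 plus VC (-0.37, adjusted p = 0.0881) or replicate 3 of WT day 4 plus VC (-0.40, adjusted p = 0.0579).

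The effect of VC itself was read at each day against cells of the same line without VC. These comparisons share libraries with those above and are given side by side. At day 0, 7 of 10 genes were lower plus VC in 4F D/KO cells (14.0% of all genes called lower) and 7 of 10 in 4F WT cells (14.4%). Trib3 moved farthest. It stood at 189, 150 and 61.0 CPM without VC and at 14.8, 12 and 13.8 CPM plus VC in D/KO cells, and at 83.1, 99.9 and 91.4 CPM and at 3.92, 3.81 and 3.65 CPM in WT cells. The groups lay far apart in both lines, with changes of -3.30 (SE 0.27, adjusted p = 7.73e-12) and -4.59 (SE 0.31, adjusted p = 5.1e-14). At days 2 and 4 the Trib3 change in D/KO cells was -3.73 (SE 0.31) and -2.19 (SE 0.30). In WT cells it was -5.81 (SE 0.37) and -4.54 (SE 0.38), and all 4 were called. Trib3 plus VC lay at only 0.495 to 1.16 CPM at day 2 and 0.699 to 0.872 CPM at day 4 in WT cells. Both WT changes thus rest on low counts plus VC. In D/KO cells 7 genes were again lower plus VC at day 0 without replicate 3 of 4F D/KO day 0 (11.1% of all genes), with Trib3 at -3.65.

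Ddit3 was the other gene lower plus VC at every day in both lines, with changes at days 0, 2 and 4 of -1.22, -1.65 and -1.49 for D/KO and -1.85, -2.28 and -1.40 for WT (SE 0.21 to 0.22). Atf4 had 323, 289 and 191 CPM without and 342, 269 and 379 CPM plus VC at day 0 in D/KO cells, overlapping groups with a difference of 0.30 (95% interval -0.09 to 0.69, adjusted p = 0.268). In WT cells Atf4 was lower plus VC at day 0 (-0.59, SE 0.19, adjusted p = 0.0188) and day 2 (-1.07, SE 0.19, adjusted p = 7.23e-05), the day 0 call being lost without replicate 2 of WT day 0 (-0.56, adjusted p = 0.0542) or replicate 3 of WT day 0 plus VC (-0.49, adjusted p = 0.107). Chac1 had 47.6, 56.6 and 16.4 CPM without and 39.6, 41.7 and 40.8 CPM plus VC at day 0 in D/KO cells (0.02, SE 0.34, adjusted p = 0.986), or -0.36 (adjusted p = 0.491) without the low replicate 3, and was lower plus VC in WT cells at all 3 days (-1.30, -2.04 and -1.38), the day 4 call being lost without replicate 1 of WT day 4 plus VC (-1.18, adjusted p = 0.0811). Sesn2 was not called for VC at any day in either line, in the fit of all libraries, with differences between -0.16 and 0.34. At day 4 in D/KO cells it was called higher plus VC with no filter (0.33, adjusted p = 0.0318) and without replicate 2 (0.34, adjusted p = 0.0483) or 3 (0.34, adjusted p = 0.0173) of 4F D/KO day 0 or replicate 3 of 4F D/KO day 2 (0.34, adjusted p = 0.0324).

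At days 2 and 4 the VC difference is given for each line, and whether it differed between the lines at the same day was not tested. At day 2, 5 of 10 genes were lower plus VC in D/KO cells (14.2% of all genes called lower) and 9 of 10 in WT cells (13.0%), with Phgdh, Asns and Mthfd2 lower in both. In D/KO cells 6 were lower without replicate 3 of 4F D/KO day 2, Chac1 (-1.21, adjusted p = 0.0075) among them, against 11.8% of all genes. Psat1 at day 2 in D/KO cells was at 0.36 and not called, but it was called higher plus VC by DESeq2 (0.38, adjusted p = 0.0377), with DESeq2's size factors (0.38, adjusted p = 0.0427), with no filter (0.36, adjusted p = 0.024), in a fit of only the groups compared (0.36, adjusted p = 0.00923) and in 5 of 36 fits without a library. At day 4, 4 were higher and 2 lower in D/KO cells (16.8% of all genes called higher and 17.7% lower), and 6 were lower in WT cells (10.4%). Psat1 at day 4 stood at 40.3, 47.1 and 35.5 CPM without and 184, 216 and 212 CPM plus VC in D/KO cells, and at 33.0, 36.4 and 34.3 CPM and 36, 37 and 33.7 CPM in WT cells. The D/KO groups did not overlap (2.32, SE 0.15, adjusted p = 1.35e-14, 4.98-fold), and the WT groups did (0.04, 95% interval -0.25 to 0.34, adjusted p = 0.892). Shmt2 (0.71, SE 0.11, adjusted p = 6.27e-06), Asns (0.43, SE 0.12, adjusted p = 0.0043) and Phgdh (0.40, SE 0.12, adjusted p = 0.0103) were the other 3 higher genes in D/KO cells at day 4, Phgdh losing its call without replicate 1 of 4F D/KO day 4 (0.35, adjusted p = 0.062) or replicate 3 of 4F D/KO day 4 plus VC (0.30, adjusted p = 0.0925). In WT cells at day 4, Mthfd2 (-1.65, SE 0.15), Asns (-0.89, SE 0.12) and Phgdh (-0.80, SE 0.13) were lower plus VC. Mthfd2 at day 2 in WT cells showed the largest enzyme difference, from 63.6, 79.8 and 60.6 CPM to 13.1, 9.46 and 11.1 CPM plus VC (-2.60, SE 0.15, adjusted p = 1.89e-15), with the groups wide apart. Phgdh in D/KO cells at day 2 (-0.43, adjusted p = 0.007) was not called without replicate 1 of 4F D/KO day 2 plus VC (-0.34, adjusted p = 0.0704), nor was Shmt2 in WT cells at day 2 (-0.37, adjusted p = 0.0138) without replicate 2 of WT day 2 (-0.30, adjusted p = 0.0906).

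**Figure D3:**
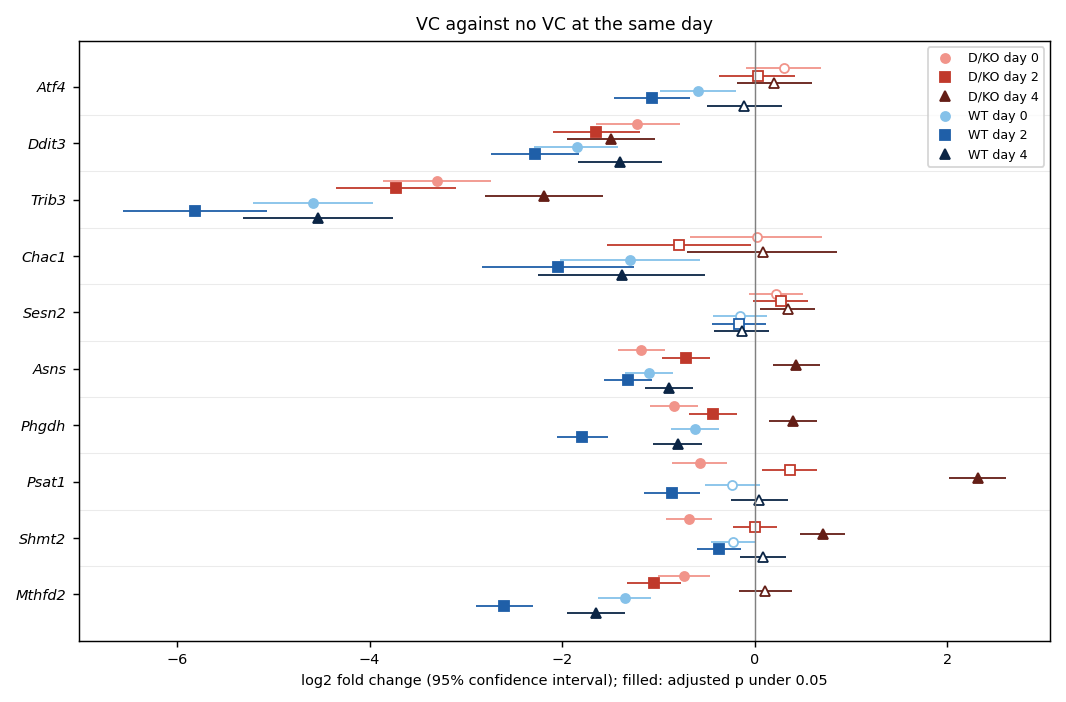
Log2 fold change of cells plus VC against cells without VC at days 0 (circles), 2 (squares) and 4 (triangles), with 95% confidence intervals; D/KO is in reds, WT in blues, and filled symbols passed an adjusted p of 0.05 in edgeR's quasi-likelihood test. All 6 Trib3 symbols lie at or below -2.19, and Psat1 in D/KO cells runs from -0.57 at day 0 to 2.32 at day 4.

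Before treatment the genes were partly higher in D/KO than in WT cells. At day 0 of the reprogramming table, 4 of 10 were higher in 4F D/KO cells (22.1% of all genes called higher), all of them enzymes. These were Asns (0.61, SE 0.12, adjusted p = 7.99e-05), Psat1 (0.60, SE 0.14), Shmt2 (0.54, SE 0.11) and Phgdh (0.49, SE 0.12). Asns stood at 209, 218 and 247 CPM in 4F D/KO and 145, 155 and 143 CPM in 4F WT cells, with no overlap. Without replicate 3 of 4F D/KO day 0, Trib3 (0.89, adjusted p = 0.00087) and Chac1 (0.82, adjusted p = 0.0484) were called higher as well, 6 of 10 against 17.6% of all genes. Both were also called higher with no filter (0.54, adjusted p = 0.000368; 0.44, adjusted p = 0.0261), and Trib3 without replicate 3 of 4F D/KO day 2 (0.55, adjusted p = 0.0414). Sesn2 was called lower in D/KO cells without replicate 1 (-0.42, adjusted p = 0.0307) or replicate 2 (-0.49, adjusted p = 0.00884) of 4F D/KO day 0, with no filter on low counts (-0.33, adjusted p = 0.0275) and with at least 10 counts in every library (-0.34, adjusted p = 0.0452).

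In the inhibitor table, 7 of 10 genes were higher in D/KO control than in WT tail tip control cells (21.3% of all genes called higher). Chac1 stood at 36.1, 34.2 and 34.2 CPM against 19.8, 17.1 and 20.9 CPM, without overlap (0.87, SE 0.10, adjusted p = 3.3e-06). Sesn2 was higher by 0.71 (SE 0.10, adjusted p = 4.08e-05), Trib3 by 0.60 (SE 0.13), Phgdh by 0.53 (SE 0.19), Mthfd2 by 0.52 (SE 0.12), Asns by 0.42 (SE 0.12) and Shmt2 by 0.25 (SE 0.08). Atf4 (-0.03, 95% interval -0.34 to 0.28), Ddit3 (-0.05, -0.47 to 0.38) and Psat1 (0.15, -0.02 to 0.32) were not called. Without replicate 1 of D/KO control, 4 of 10 were called (18.9% of all genes called higher), with Phgdh (0.43, adjusted p = 0.122), Asns (0.33, adjusted p = 0.0547) and Shmt2 (0.22, adjusted p = 0.0934) lost. Phgdh and Shmt2 also lost their calls without replicate 2 of WT tail tip control (0.39, adjusted p = 0.129; 0.21, adjusted p = 0.0905) or replicate 3 of D/KO control (0.54, adjusted p = 0.0705; 0.25, adjusted p = 0.0606), and Phgdh without replicate 1 of WT tail tip control (0.58, adjusted p = 0.0502). The 11 proliferation genes summed to 169 to 171 CPM in D/KO control and 107 to 116 CPM in WT tail tip cells, a part that was not tested.

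The inhibitors were each compared with the same 3 D/KO control libraries. A83-01 lowered 7 of 10 genes (16.2% of all genes called lower), by a median of -0.77 where the median over all genes was 0.003. Trib3 stood at 142, 120 and 137 CPM in control and 50.7, 40.6 and 47.2 CPM with A83-01, and Psat1 at 183, 163 and 181 CPM and 81.1, 77.2 and 78.8 CPM. Neither gene's groups overlapped, with changes of -1.53 (SE 0.13, adjusted p = 1.56e-07) and -1.16 (SE 0.08, adjusted p = 1.15e-08). Mthfd2 (-1.01, SE 0.12), Asns (-0.89, SE 0.12), Shmt2 (-0.82, SE 0.09), Chac1 (-0.73, SE 0.10) and Atf4 (-0.64, SE 0.15, adjusted p = 0.00277) fell with them. Phgdh (0.08, 95% interval -0.32 to 0.48), Sesn2 (0.05, -0.17 to 0.27) and Ddit3 (-0.09, -0.52 to 0.33) were not called.

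Repsox lowered 6 of 10 genes (11.8% of all genes called lower). Trib3 was at 63.5, 82.7 and 59.1 CPM, below all control libraries (-0.96, SE 0.13, adjusted p = 3.82e-05), and Psat1 at 120, 125 and 113 CPM, also below them (-0.56, SE 0.08, adjusted p = 5.91e-05). Shmt2 (-0.43, SE 0.08), Chac1 (-0.39, SE 0.10), Mthfd2 (-0.43, SE 0.12) and Atf4 (-0.49, SE 0.15) fell as well. Replicate 2 of Repsox stood above the other 2 in Atf4, Ddit3, Phgdh, Asns and Mthfd2, and 7 of 10 genes were called lower without it (11.5% of all genes). Mthfd2 and Atf4 lost their calls without replicate 1 of D/KO control (-0.40, adjusted p = 0.0555; -0.42, adjusted p = 0.0878), replicate 1 of Repsox (-0.34, adjusted p = 0.0742; -0.41, adjusted p = 0.0852) or replicate 3 of Repsox (-0.36, adjusted p = 0.0707; -0.39, adjusted p = 0.0943).

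Vactosertib lowered 3 of 10 genes (10.3% of all genes called lower), Trib3 (-0.48, SE 0.13, adjusted p = 0.0137), Psat1 (-0.43, SE 0.08, adjusted p = 0.000838) and Shmt2 (-0.34, SE 0.08, adjusted p = 0.00849). Trib3 lost its call without replicate 1 of D/KO control (-0.43, adjusted p = 0.0576) or replicate 2 of Vactosertib (-0.43, adjusted p = 0.0611), and 5 genes were called lower in the fit without replicate 2 of Repsox (12.8% of all genes). Atf4, at -0.40 with Vactosertib and not called, was called lower by DESeq2 (-0.40, adjusted p = 0.0359) and in a fit of only the groups compared (-0.41, adjusted p = 0.00786), the latter also calling Mthfd2 (-0.29, adjusted p = 0.0177). DMH-1 gave 0 calls of 10 in edgeR (3 at an unadjusted p under 0.05, 1 higher by DESeq2), where 9.75% of all genes were called in either direction. Ddit3 stood at 61.2, 82.6 and 90.5 CPM with DMH-1 against 55.2, 47.1 and 49.9 CPM in control (0.63, 95% interval 0.20 to 1.05, adjusted p = 0.0613), and all 3 DMH-1 libraries were above the control libraries. Ddit3 was called higher by DESeq2 (0.62, adjusted p = 0.0296), with no filter (0.63, adjusted p = 0.0164) and in a fit of only the groups compared (0.62, adjusted p = 0.0135), the last also calling Sesn2 (0.29, adjusted p = 0.0442). Ddit3 was also called higher without replicate 2 (0.63, adjusted p = 0.0446) or 3 (0.61, adjusted p = 0.0478) of WT tail tip control. The same held without replicate 2 of Repsox (0.63, adjusted p = 0.0152) or replicate 1 of DMH-1 (0.77, adjusted p = 0.0357). Sesn2 was called higher with DMH-1 without replicate 2 of Repsox (0.30, adjusted p = 0.0253).

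**Figure D4:**
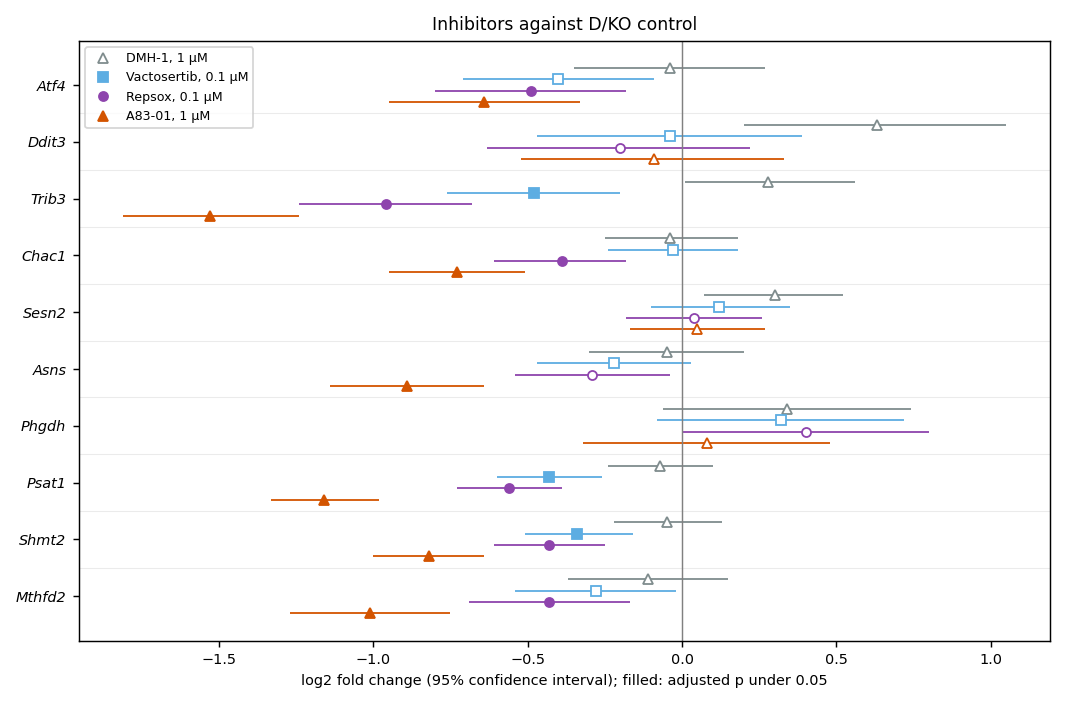
Log2 fold change with each inhibitor against D/KO control, with 95% confidence intervals; filled symbols passed an adjusted p of 0.05 in edgeR's quasi-likelihood test, and the legend gives the doses. Psat1 lay at -1.16 with A83-01, -0.56 with Repsox, -0.43 with Vactosertib and -0.07 with DMH-1, and Sesn2 had no filled symbol.

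Compounds were compared where the dose was the same, in 2 pairs. Between Repsox and Vactosertib at 0.1 µM, which both inhibit ALK5, Vactosertib by description also ALK2, 0 of 10 genes were called by edgeR (2 at an unadjusted p under 0.05, 0 by DESeq2), and 0% of all genes were, 0 of 15164, with 452 genes (2.98%) at an unadjusted p under 0.05. The difference was -0.48 for Trib3 (95% interval -0.76 to -0.20, unadjusted p = 0.00211, adjusted p = 1) and -0.36 for Chac1 (-0.58 to -0.15, adjusted p = 1), and it lay between -0.16 and 0.08 for the others. Without replicate 2 of Repsox, 7 genes were at an unadjusted p under 0.05 and 0 were called. Between the ALK5 inhibitor A83-01 and the ALK2 inhibitor DMH-1 at 1 µM, 8 of 10 genes were lower with A83-01 (13.4% of all genes called lower), led by Trib3 (-1.81, SE 0.13, adjusted p = 3.86e-08) and Psat1 (-1.09, SE 0.08, adjusted p = 4e-08). Phgdh (-0.26, 95% interval -0.66 to 0.14) and Sesn2 (-0.24, -0.46 to -0.02) were not called, and Ddit3 (-0.72, adjusted p = 0.0142) was lost without replicate 3 of DMH-1 (-0.60, adjusted p = 0.0679) or replicate 2 of A83-01 (-0.66, adjusted p = 0.0566). The 11 proliferation genes summed to 87.3 to 95.9 CPM with A83-01, 106 to 120 with DMH-1, 119 to 134 with Repsox and 104 to 117 with Vactosertib, against 169 to 171 in control, and the 4 endothelial markers to 240 to 288 CPM in control and 106 to 143 with A83-01. The part of both lists was not tested.

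WT skin fibroblasts were lower than WT tail tip fibroblasts in 5 of 10 genes (16.1% of all genes called lower), Chac1 (-0.87, SE 0.14), Trib3 (-0.74, SE 0.13), Sesn2 (-0.56, SE 0.17), Psat1 (-0.36, SE 0.09) and Shmt2 (-0.35, SE 0.10). Sesn2 stood at 29.2, 57.5 and 57.1 CPM in skin and 76.3, 73.1 and 62.5 CPM in tail tip, with no overlap and replicate 1 of skin the lowest. Without replicate 1 of WT skin, 9 of 10 genes were called lower (18.8% of all genes called lower), with Mthfd2 (-0.06, adjusted p = 0.76) the exception. In a fit of the 6 libraries of these groups alone 2 genes were called (7.91% of all genes called lower), and Sesn2 (-0.54, adjusted p = 0.244) was not; it was also lost without replicate 1 of WT tail tip (-0.50, adjusted p = 0.0589), and Shmt2 without replicate 2 of skin (-0.25, adjusted p = 0.0657).

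**Figure D5:**
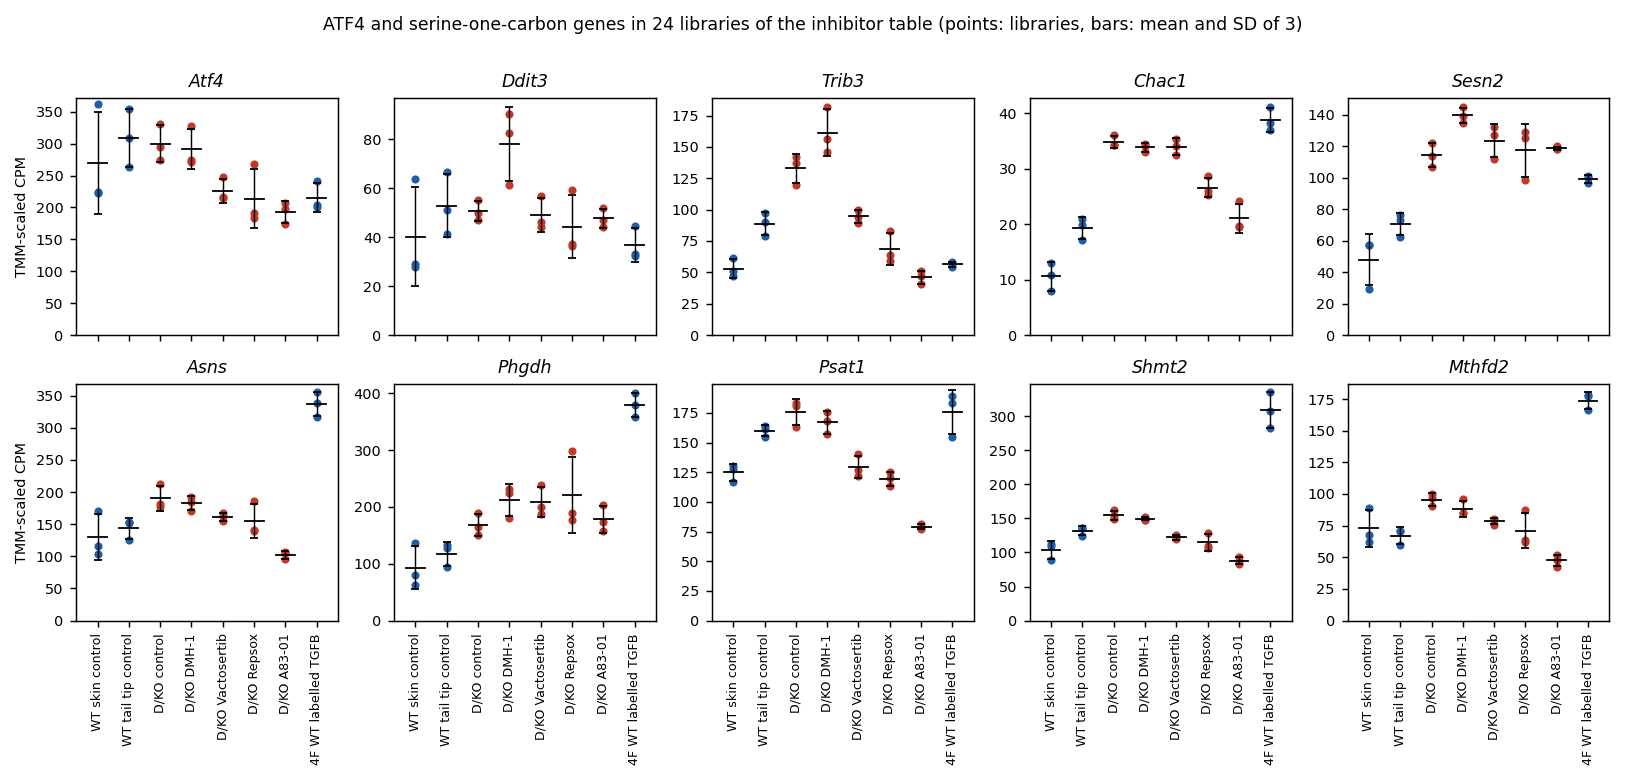
TMM-scaled CPM of each gene in the 24 libraries of the inhibitor table, with WT in blue and D/KO in red, a point for each library and bars for the mean and SD of 3. The 4F WT cells labelled TGFB lie above every other library in Asns, Phgdh, Shmt2, Mthfd2 and Chac1, and A83-01 has the lowest mean in Psat1 (79.0 CPM), Trib3 (46.2 CPM) and Shmt2 (88.1 CPM).

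The other genes of the axis were counted from lists of named genes. In 4F D/KO cells at day 4 without VC, where 18.7% of all genes were called lower and 18.3% higher, 13 of 15 cytosolic tRNA synthetases tested fell and 1 rose (median -0.76), led by Aars1 (-1.35) and Cars1 (-1.20), and 8 of 9 amino acid transporters fell and 1 rose (median -0.69), led by Slc7a5 (-1.82), the leucine transporter, and Slc7a11 (-1.46), the cystine transporter. In 4F WT cells 11 of 15 synthetases (median -0.36) and 6 of 9 transporters (median -0.61) fell, against 12.8% of all genes. At day 4 plus VC against day 0 plus VC in D/KO cells, where 27.9% of all genes were called higher and 26.2% lower, 6 of 15 synthetases rose and 2 fell (median 0.13), and 4 of 9 transporters rose, among them Slc1a5 (2.52), and 2 fell (median -0.09). The median over all genes in these comparisons lay between -0.012 and 0.013. Of 12 further ATF4-axis factors and stress genes, 5 fell and 2 rose at D/KO day 4, the latter Stc2 (1.67) and Nupr1 (1.08), and 4 rose and 4 fell at D/KO day 4 plus VC (median 0.20), with Cth, which makes cysteine from cystathionine, higher by 3.90.

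Other serine, glycine and folate genes did not move as a block. Of 22 tested, 6 fell and 2 rose at D/KO day 4 (median -0.01; 18.7% of all genes called lower and 18.3% higher), with Aldh1l2, which oxidises formyl-folate in mitochondria, at -2.43 and the last enzyme of serine synthesis, Psph, at -1.24, while Paics, of purine synthesis, rose by 2.43. At D/KO day 4 plus VC 14 rose and 6 fell (median 0.47; 27.9% and 26.2% of all genes called higher and lower), with Paics at 2.57, Atic at 1.34, Aldh1l2 at -2.29 and Aldh1l1 at -2.15. At D/KO day 4 without VC, of the 12 genes for the eIF2 kinases, eIF2 and its phosphatase, 3 fell and none rose (median -0.16), of the 7 mitochondrial chaperones and proteases 3 fell and 1 rose (median -0.30), and of the 14 endoplasmic reticulum genes of the ATF6 and XBP1 arms 10 fell (median -0.59), led by Edem1 (-1.22).

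With A83-01, 11 of 15 synthetases (median -0.43), 5 of 9 transporters (median -0.90), 11 of 14 endoplasmic reticulum genes (median -0.65) and 7 of 23 other serine and folate genes (median -0.14) fell, with Aldh1l2 at -2.26 and Mthfd1l at -1.44, against 16.2% of all genes. With DMH-1, 1 synthetase rose and 1 fell, no transporter was called and 1 endoplasmic reticulum gene fell, where 5.96% of all genes were called higher and 3.79% lower.

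How alike the 10 genes were is described by Pearson's r of log2 CPM across the 12 reprogramming group means, which share libraries, lines and treatments, so no p is given. Each gene was set against the mean of the other 9. Mthfd2 (0.97), Chac1 (0.93) and Phgdh (0.89) followed the others most closely, and Sesn2 (0.32) least. Of the 45 pairs, 31 had an r above 0.5, with a median of 0.63 and a range from -0.07 to 0.93. Outside the 10 genes, the profiles most like their mean were those of Nars1 (0.961), Cars1 (0.960), Aars1 (0.949), Stbd1 and Med8 (0.944 each), Smim15 (0.939), Bnip3 (0.937), 4921524J17Rik (0.935), Mmadhc and Adm2 (0.932 each), of which the first 3 encode tRNA synthetases.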

How the data were processed

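The authors deposited 2 tables of raw gene counts, of 36 and 24 libraries, made from paired-end reads with FastQC, Trim Galore, HISAT2 on GRCm39 and featureCounts (Subread), as the submitters' processing notes and the study's methods name them. Versions, annotation, strand setting and the handling of multiply mapped reads were not given in the sources used here. Of the identifiers, 98.7% matched GENCODE M39, which gave symbols and coordinates.

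In R 4.3.3, counts were TMM-scaled (factors 0.773 to 1.1 and 0.92 to 1.06) and tested in edgeR 4.0.16 (filterByExpr, at least 10 counts per library and 15 in total; two-sided glmQLFTest; 1 coefficient per group). The reprogramming fit held 36 libraries and 15832 genes, the inhibitor fit 18 libraries and 15164 genes, and skin was compared in a fit of all 24 (15652 genes). Tables were never pooled. DESeq2 1.42.0 was an alternative. RPKM used the deposited length column. The code was tested on simulated counts.

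The 10 genes and the lists were chosen with earlier results of these data known. Named list genes are at most 4 per list and comparison, those with the largest change among genes called. The list of proline synthesis genes is not reported here. The 10 genes of likest profile were taken by rank. Replicates were compared, and each pair differed by more than counting noise (at least 3.22 times its variance). For 4F WT cells labelled TGFB, whose agent, dose and time were not given in the sources used here, values only are reported.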

Additional observations from a re-analysis of the deposited data

Results flagged for a closer look

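In cells plus VC, the change from day 0 plus VC differed between the lines, by an interaction term in edgeR's quasi-likelihood test. At day 2 plus VC the D/KO change exceeded the WT change by 1.29 (log2) in Phgdh, 1.18 in Psat1 and 0.68 in Shmt2. At day 4 plus VC the difference was 2.26 in Psat1, 1.08 in Phgdh, 0.99 in Asns, 0.96 in Shmt2 and 0.86 in Mthfd2, and -0.78 in Atf4 and -0.84 in Ddit3. The Atf4 and Ddit3 calls were each lost in 7 of 36 fits that left out a library, and with day 0 without VC as the baseline the differences were 0.11 (adjusted p = 0.833) and -0.20 (adjusted p = 0.707). On that baseline Shmt2 at day 2 plus VC was at 0.22 (adjusted p = 0.374). The lines also differ in sex and age.

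The 4F WT cells labelled TGFB entered no comparison, because no other group of that line is in their table. Their mean was 379 CPM in Phgdh, 337 in Asns, 309 in Shmt2, 174 in Mthfd2 and 38.8 in Chac1, with all 3 libraries above the 9 control libraries and the 21 other libraries of the table. The highest control library was at 189, 212, 162, 100 and 36.1 CPM. For Psat1 (176 CPM), Trib3 (56.5), Atf4 (215), Ddit3 (36.7) and Sesn2 (99.4) the libraries overlapped the range of the controls or of the other libraries.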

How the results depend on the processing

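Of 310 gene and comparison pairs 170 were called, and 131 of these were lost in no alternative. With all libraries kept, total counts of calls per family of comparisons moved by over 1.5 times in 1 case, WT skin, where 2 in place of 5 genes were called in a fit of only those groups; by direction, the lower calls of the D/KO minus WT change went from 2 to 7 with no filter and to 0 with day 0 without VC as the baseline, the higher calls of D/KO against day 0 from 5 to 0 with that baseline, the inhibitors' higher calls from 0 to 1 with no filter or DESeq2 and to 2 with own groups, and the lower calls of D/KO against WT from 0 to 1 with either other filter. Leaving out each library gave 32 to 36 calls for D/KO against day 0, 24 to 28 for WT against day 0, 8 to 14 for the D/KO minus WT change, 16 to 21 for day 4 against day 2, 39 to 42 for VC, 8 to 13 for D/KO against WT, 13 to 21 for the inhibitors, 7 to 9 for compounds and 4 to 9 for skin (9 without replicate 1 of WT skin), and no called gene changed sign. With day 0 without VC as the baseline of the groups plus VC, 5 called values changed sign, Shmt2 in D/KO cells at day 2 plus VC (-0.21) and day 4 plus VC (-0.19), Asns at D/KO day 4 plus VC (-0.75), Phgdh at D/KO day 2 plus VC (-0.49) and the Atf4 difference between lines at day 4 plus VC (0.11). DESeq2's size factors and subtraction of the all-gene median lost no call; no filter lost 5, DESeq2's test 1, own groups 9 and all 24 libraries 4, while no filter added 20 calls, DESeq2's test 9, own groups 16 and DESeq2's size factors 3. At least 10 counts in every library removed Trib3 from the reprogramming fit. No paired analysis was possible because the labels give no replicate numbers shared between groups.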
